A study of Drosophila melanogaster with 14 samples.

Results

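Heads or brains of flies that carry both the pan-neuronal driver elav-Gal4 and a UAS-APP transgene (elav-Gal4 UAS-APP) were compared with those of flies that carry the UAS-APP transgene with no driver (UAS-APP control). The comparison covers every gene with at least 1 FPKM (fragments scaled by gene length and library size) in at least 2 of its 4 libraries, which left 9703 of 14767 listed genes. The elav-Gal4 UAS-APP flies are labelled Elav-Gal4;UAS-APP;+ and the UAS-APP control flies w;UAS-APP;+, so both groups carry the UAS-APP insertion and only the first is labelled with the driver. All are labelled as adult males, 5 to 7 days after birth, reared at room temperature, with about 50 flies pooled in each of the 2 libraries of a group. A driver control, Elav-Gal4;+;+, labelled with the same age and sex, with 2 libraries, is set beside them where its level bears on a result. The labels do not say which APP sequence the transgene holds or where it is inserted, and its own transcript was not analysed here.

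Gal4 is a yeast transcription factor that switches on a gene placed behind UAS sequences, so that a driver line decides in which cells a transgene is made. The elav-Gal4 driver acts in neurons, and expression of the amyloid precursor protein APP with it is a common fly model of APP biology. APP is a membrane protein that secretases cut into fragments, among them the amyloid-beta peptides of Alzheimer's disease, and the fly has a single gene of this family, Appl. Poly(A) RNA of a pool of flies mixes all cells of the tissue taken, so fewer cells of a type and less RNA per cell cannot be told apart.

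The series holds 14 libraries in 7 groups, and its design text asks which pathways act downstream of APP, of Shal495, of TrpA1 and of the hyperexcitability they bring. The sample labels name brain as the tissue and describe dissected brains fixed in paraformaldehyde, whereas the series description names heads. Library totals recovered from the table were 18695359 and 18826488 fragments in elav-Gal4 UAS-APP and 19566061 and 17613023 in the UAS-APP control, so that 3 fragments on a 1 kb gene, the floor used here, equal 0.153 to 0.170 FPKM. Whether replicate libraries stem from different collections is not labelled, and p-values therefore cover only how much these 4 libraries vary. The spread was small in elav-Gal4 UAS-APP, with a chi-square per gene of 2.16 where sampling noise alone gives about 1, and larger in the UAS-APP control, at 24.8. Fold values below are differences of group means of log2(FPKM + 1), elav-Gal4 UAS-APP minus UAS-APP control, less 0.18, the median difference of all kept genes, and their errors are moderated standard errors (SE) from limma with Benjamini-Hochberg adjusted p over all 9703 genes.

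Marker genes of several cell types stood at different levels in the 2 groups. The 12 neuron markers took up 1.07% and 1.06% of fragments in elav-Gal4 UAS-APP, against 0.377% and 0.266% in the UAS-APP control and 0.0818% and 0.0822% in the driver control. Markers of photoreceptors, the light-sensing neurons of the eye, took up 6.55% and 6.54% in elav-Gal4 UAS-APP, against 5.30% and 4.34% in the UAS-APP control and 0.655% and 0.663% in the driver control, although all these libraries are labelled as brain. Genes of digestive enzymes, which mark the gut, took up 0.149% and 0.151% in elav-Gal4 UAS-APP, against 4.04% and 4.35% in the UAS-APP control and 9.28% and 9.41% in the driver control. Glia markers took up 0.457% and 0.459% in elav-Gal4 UAS-APP, against 0.333% and 0.329% in the UAS-APP control, and fat body markers 0.703% and 0.701% in elav-Gal4 UAS-APP, against 0.849% and 0.920% in the UAS-APP control. Muscle markers took up 1.05% and 1.05% in elav-Gal4 UAS-APP, against 0.629% and 0.672% in the UAS-APP control. For each of these 6 lists the libraries of the 2 groups did not overlap. The part of such differences in tissue content in the changes of other genes was not tested.

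**Figure D1:**
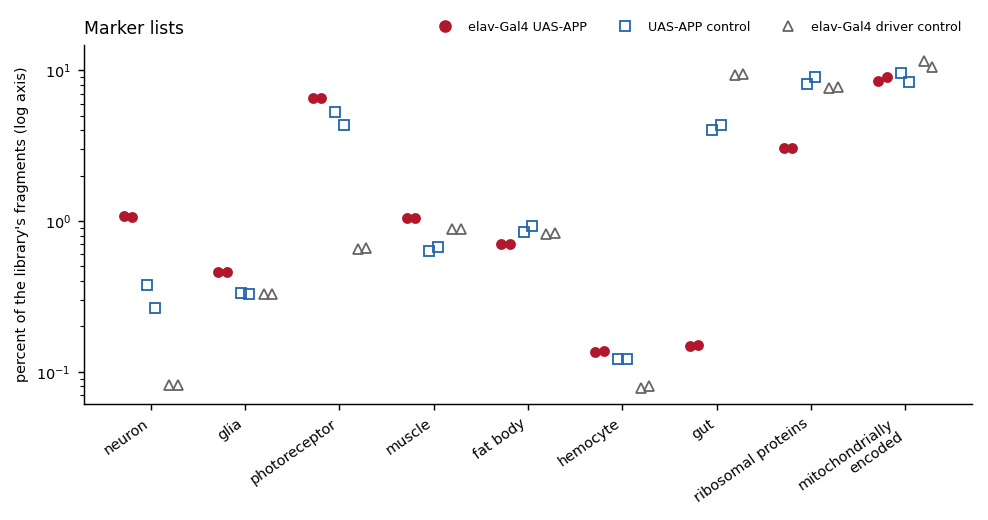
Percent of each library's fragments (log axis) that fell on the genes of 9 marker lists, with 1 symbol per library for elav-Gal4 UAS-APP, the UAS-APP control and the elav-Gal4 driver control. Neuron markers were at 1.07% and 1.06% in elav-Gal4 UAS-APP, against 0.377% and 0.266% in the UAS-APP control, and gut markers at 0.149% and 0.151% in elav-Gal4 UAS-APP, against 4.04% and 4.35% in the UAS-APP control.

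At an adjusted p under 0.05, 3621 genes were higher (37.3%) and 3618 lower (37.3%) in elav-Gal4 UAS-APP, 74.6% of all kept genes. With no median taken away, 4386 genes were higher and 2853 lower. Because so many genes passed, a second rule asked in addition for a difference of at least 2-fold and for no overlap of FPKM between the groups, and it was met by 1349 higher genes (13.9%) and 1385 lower genes (14.3%), 28.2% in all. With no median taken away, 1801 higher and 1079 lower genes met this rule. The groups did not overlap in 8631 genes (89%). With the median taken away, large falls outnumbered large rises. There were 193 genes at least 4-fold higher and 421 at least 4-fold lower, and 3 at least 16-fold higher against 92 at least 16-fold lower.

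Appl, elav and w were read first in every library. Appl, the fly's own APP family gene (X, 530501 to 579044 on BDGP6), had 168 and 168 FPKM in elav-Gal4 UAS-APP, against 41.8 and 30.9 FPKM in the UAS-APP control. Both elav-Gal4 UAS-APP libraries were above both control libraries, and the difference was 2.01 ± 0.14 (adjusted p = 6.26e-05). The gene elav, which encodes the neuronal RNA-binding protein whose promoter the driver is named for (X, 509235 to 523226), had 20.3 and 20.6 FPKM in elav-Gal4 UAS-APP, against 10.1 and 6.63 FPKM in the UAS-APP control, again with no overlap, and rose by 1.04 ± 0.18 (adjusted p = 0.0023). The eye-colour gene w, which encodes an ABC transporter subunit and is a common marker of transgenes (X, 2790599 to 2796466), had 23.6 and 24.5 FPKM in elav-Gal4 UAS-APP, against 47 and 40.1 FPKM in the UAS-APP control. It was lower in both elav-Gal4 UAS-APP libraries, at -1.01 ± 0.10 (adjusted p = 0.000217), and its 2 driver control libraries averaged 16.5 FPKM. The driver control had 9.50 and 9.98 FPKM for Appl and 2.22 and 2.41 FPKM for elav. Both genes were thus lower there than in either of the other groups.

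The 12 largest rises among genes of at least 5 FPKM in a group were a mixed set of cuticle, transcription, receptor and cilium genes. CG7214, which the deposited table describes as adult cuticle protein 1 (2L, 7743682 to 7744839), had 135 and 134 FPKM in elav-Gal4 UAS-APP, against 0.687 and 0.764 FPKM in the UAS-APP control. Its neighbour Acp1, with the same description (2L, 7740562 to 7741537), had 37.8 and 36 FPKM in elav-Gal4 UAS-APP, against 1.73 and 0.993 FPKM in the UAS-APP control. The driver control had 101 and 107 FPKM for CG7214 and averaged 29.2 FPKM for Acp1, so both genes were low in the UAS-APP control and not in the other groups. Crg-1, a forkhead transcription factor gene known as circadianly regulated (X, 3793223 to 3797339), had 24.8 and 26.9 FPKM in elav-Gal4 UAS-APP, against 0.0831 and 0.0462 FPKM in the UAS-APP control. The long noncoding RNA gene lncRNA:CR46123 (3R, 1366234 to 1366601) had 139 fragments in each elav-Gal4 UAS-APP library and 0 in both UAS-APP control libraries, which makes it at least 43.5-fold higher against a floor of 3 counts per library. Crys, which encodes the lens protein drosocrystallin, had 19.6 and 19.6 FPKM in elav-Gal4 UAS-APP, against 0.452 and 1.31 FPKM in the UAS-APP control. Its libraries did not overlap, and it rose by 3.31 ± 0.22 (adjusted p = 5.09e-05). Among neuronal genes, nAChRbeta1, a nicotinic acetylcholine receptor subunit (3L, 4429349 to 4435993), had 201 and 199.8 FPKM in elav-Gal4 UAS-APP, against 22.1 and 17.5 FPKM in the UAS-APP control. That difference of 3.10 ± 0.12 (adjusted p = 9.63e-06) was the widest of its receptor family. IFT54, whose product belongs to the transport machinery of cilia, had 16.6 and 15.9 FPKM in elav-Gal4 UAS-APP, against 0.721 and 1.05 FPKM in the UAS-APP control. The other 5 were CG10357, annotated as a lipase in the deposited table, CG4962, CG10185, CG31528 and Jhedup, an esterase gene, of which CG10357 rose most, by 3.22.

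The 12 largest falls included 5 of the gut markers, Jon99Ci, Mal-A7, Mal-A8, yip7 and Amy-d. The largest was that of CG15263, a gene with no protein description in the deposited table (2L, 15285000 to 15286047), which had 0.510 and 0.304 FPKM in elav-Gal4 UAS-APP, against 272 and 309 FPKM in the UAS-APP control, a difference of -7.88 ± 0.11 (adjusted p = 6.41e-07). CG3739, annotated as a serine peptidase in the deposited table, had 2.02 and 1.67 FPKM in elav-Gal4 UAS-APP, against 319.9 and 374 FPKM in the UAS-APP control. CG43055, annotated there as a C-type lectin, had 1.60 and 1.32 FPKM in elav-Gal4 UAS-APP, against 266 and 270.2 FPKM in the UAS-APP control. Each was far below both control libraries in both elav-Gal4 UAS-APP libraries. The Jonah protease genes yip7 (3L, 6035216 to 6036175) and Jon99Ci, which act in the gut, fell as well, and yip7 had 33.7 and 33.4 FPKM in elav-Gal4 UAS-APP, against 2304 and 2382 FPKM in the UAS-APP control. The maltase genes Mal-A7 and Mal-A8 and the amylase gene Amy-d digest starch and sugars, and Amy-d had 28.2 and 28.2 FPKM in elav-Gal4 UAS-APP, against 1494 and 1759 FPKM in the UAS-APP control. The digestive enzyme families include closely similar copies, such as those of amylase, so how fragments were split among such copies is uncertain. CG34040, CG5107, CG4363 and Cda9, a chitin deacetylase gene, completed the set, with differences of -6.17, -5.94, -5.90 and -5.90. Of the 47 gut markers in the table, 34 were kept, and 32 of them fell and 2 rose, LysS and Mal-A5, with a median of -4.54. Among those that fell, deltaTry and gammaTry had no fragment in either elav-Gal4 UAS-APP library. The filter kept them through the UAS-APP control alone, so their direction was set by it.

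**Figure D2:**
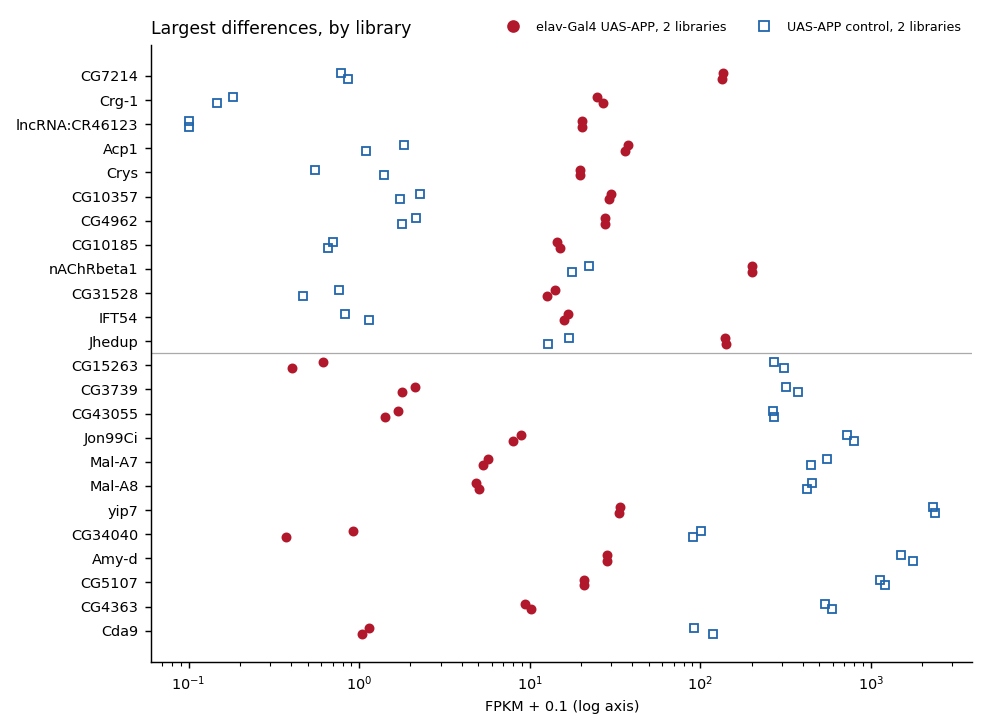
FPKM of 24 genes in each library, as FPKM + 0.1 on a log axis, for the 12 largest rises (top) and the 12 largest falls (bottom); filled circles are the 2 elav-Gal4 UAS-APP libraries and open squares the 2 UAS-APP control libraries. No gene has overlapping groups, and yip7 stood at 33.7 and 33.4 FPKM in elav-Gal4 UAS-APP, against 2304 and 2382 FPKM in the UAS-APP control.

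The difference between the groups moved with gene length. Over 9604 genes with a known exon length, the median difference was -0.63 in the shortest eighth (31 to 847 bases) and 0.81 in the longest (5274 to 71820 bases), and rose in every step between. In the shortest eighth 217 genes were higher and 738 lower, and in the longest 993 were higher and 44 lower. The rank correlation of length with the difference was 0.50 across these genes, which share the same 4 libraries and are not independent. Between the 2 elav-Gal4 UAS-APP libraries (replicate 1 minus replicate 2) the medians stayed between 0 and 0.01, whereas between the 2 UAS-APP control libraries a similar trend appeared at smaller size, with a median of -0.09 in the shortest eighth and 0.20 in the longest. Long genes include many genes of neurons, and short ones many of ribosomes and mitochondria, so the lists below are also given after the median of genes of like length was taken away in each library (length-centred). With that step 3293 genes were higher and 3252 lower. Counts in a list are to be read against the 37.3% of all kept genes that were higher and the 37.3% that were lower. Members under 1 FPKM in both libraries of a group were kept through the other group alone, so the filter in part set their direction.

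**Figure D3:**
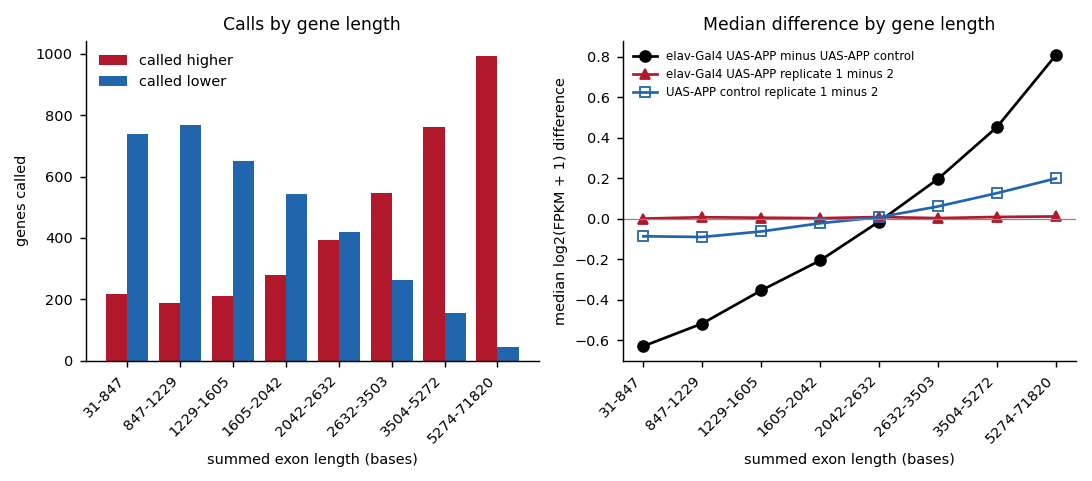
Left, number of genes called higher or lower in elav-Gal4 UAS-APP in 8 bins of summed exon length (bases). Right, median log2(FPKM + 1) difference in the same bins between elav-Gal4 UAS-APP and the UAS-APP control, less the all-gene median, and between replicate 1 and 2 within each group. The difference between groups ran from -0.63 to 0.81, that within elav-Gal4 UAS-APP stayed near 0, and that within the UAS-APP control ran from -0.09 to 0.20.

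Genes of electrical excitability were higher in elav-Gal4 UAS-APP. All 13 kept genes of sodium and calcium channels rose, where 37.3% of all genes did, with a median of 1.97 (1.39 length-centred). The 12 general neuron markers all rose too, with a median of 1.74 (0.92 length-centred). The neuronal lists here and below are to be read beside that rise. Whether any of them rose apart from it was not tested. The leading 4 sodium and calcium channel genes were unc79, unc80, Ca-alpha1T and na. Of these, na encodes the sodium leak channel, unc79 and unc80 its partner proteins, and Ca-alpha1T a T-type calcium channel. The leak channel gene na had 25.8 and 26 FPKM in elav-Gal4 UAS-APP, against 3.78 and 2.67 FPKM in the UAS-APP control. Its partner unc79 had 48.3 and 47.8 FPKM in elav-Gal4 UAS-APP, against 6.36 and 4.38 FPKM in the UAS-APP control. Neither gene's groups overlapped, and the differences were 2.50 ± 0.14 (adjusted p = 3.23e-05) and 2.78 ± 0.15 (adjusted p = 3.11e-05). The sodium channel gene para was not analysed here. Of 24 potassium channel genes 18 rose and 2 fell (median 1.40, 0.77 length-centred), led by Shab, Sh, Task6 and SLO2. Sh, the Shaker channel that shapes the action potential, had 41.8 and 41.5 FPKM in elav-Gal4 UAS-APP, against 8.74 and 5.80 FPKM in the UAS-APP control, a difference of 2.21 ± 0.17 (adjusted p = 8.73e-05). The 2 that fell were the inward rectifier genes Irk1 and Irk2. Irk1 had 0.469 and 0.638 FPKM in elav-Gal4 UAS-APP, against 1.67 and 1.68 FPKM in the UAS-APP control, a difference of -0.97 ± 0.13 (adjusted p = 0.000747), and Irk2 fell by 0.38 ± 0.07.

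Transmitter receptors followed in the same direction. All 9 nicotinic acetylcholine receptor subunits, which carry fast excitation in the fly brain, rose, from nAChRalpha3 at 1.29 ± 0.12 (adjusted p = 0.000181) to nAChRbeta1 at 3.10 (median 1.75, 1.01 length-centred). Subunit nAChRalpha7 had 48 and 46.4 FPKM in elav-Gal4 UAS-APP, against 11.5 and 8.94 FPKM in the UAS-APP control, and nAChRalpha3, with the smallest rise of the family, had 4.12 and 3.80 FPKM in elav-Gal4 UAS-APP, against 0.871 and 0.708 FPKM in the UAS-APP control. In all 9 subunits both elav-Gal4 UAS-APP libraries exceeded both control libraries, where 89% of all kept genes had no overlap in one direction or the other. Of these, nAChRalpha3 was under 1 FPKM in both control libraries. The filter kept it through elav-Gal4 UAS-APP alone, so its direction was in part set by the filter. For GABA and glycine signalling 11 of 12 genes rose and 0 fell (median 1.83, 1.46 length-centred). Gad1, the enzyme that makes GABA, had 162 and 160.4 FPKM in elav-Gal4 UAS-APP, against 25.7 and 21.5 FPKM in the UAS-APP control, and Rdl, a GABA-gated chloride channel, had 66.6 and 65.8 FPKM in elav-Gal4 UAS-APP, against 11.2 and 8.29 FPKM in the UAS-APP control. Both were higher in both elav-Gal4 UAS-APP libraries, at 2.55 ± 0.10 (adjusted p = 1.1e-05) and 2.48 ± 0.13 (adjusted p = 2.99e-05). Glutamate signalling was mixed, with 13 of 22 genes higher and 4 lower (median 0.55, 0.48 length-centred). The glutamate-gated chloride channel GluClalpha and the NMDA receptor genes Nmdar1 and Nmdar2 rose by 2.30, 2.02 and 2.22, whereas the aspartate aminotransferase genes Got1 and Got2 fell by 0.65 and 1.29. For monoamines 21 of 28 genes rose and 3 fell (median 1.35, 0.96 length-centred). The receptors Dop1R1, DopEcR, 5-HT1B and Oamb rose by 2.02 to 2.14, but the tyrosine hydroxylase gene ple, which makes the dopamine precursor, had 38.4 and 35.5 FPKM in elav-Gal4 UAS-APP, against 52 and 61.4 FPKM in the UAS-APP control. Both libraries of elav-Gal4 UAS-APP were below both control libraries for ple, at -0.78 ± 0.10 (adjusted p = 0.000742).

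Synaptic and wiring proteins moved together. At the active zone, where vesicles are released, 16 of 17 genes rose and 0 fell (median 1.89, 1.08 length-centred). The scaffold gene brp had 58.9 and 57.9 FPKM in elav-Gal4 UAS-APP, against 11.1 and 7.82 FPKM in the UAS-APP control, and the kinesin gene unc-104, which carries synaptic vesicle precursors, had 156 and 156 FPKM in elav-Gal4 UAS-APP, against 36.5 and 27.6 FPKM in the UAS-APP control. These were differences of 2.34 ± 0.15 (adjusted p = 5.11e-05) and 2.08 ± 0.13 (adjusted p = 4.76e-05). All 31 kept dpr and DIP genes, a family of immunoglobulin proteins that pair between synaptic partners, rose (median 1.68, 1.32 length-centred), and so did all 21 kept beat and side genes, which guide motor axons (median 1.69, 1.37 length-centred). The adhesion gene dpr8 had 19.6 and 20 FPKM in elav-Gal4 UAS-APP, against 2.57 and 2.22 FPKM in the UAS-APP control, and side-VI had 17.6 and 16.9 FPKM in elav-Gal4 UAS-APP, against 2.65 and 2.22 FPKM in the UAS-APP control. No library of one group reached the range of the other in either gene. Among axon guidance genes 35 of 42 rose and 1 fell, with tutl, Dscam2, Dscam3 and Ten-a leading, tutl by 2.80 and Ten-a by 2.13, and Sema5c the only one to fall, by 0.65. The list's median was 1.14, and 0.41 length-centred.

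Regulators of neuronal genes mostly rose as well, though fewer did when length-centred. Of 44 neuronal transcription factor genes 35 rose and 2 fell (median 0.80), and length-centred 23 rose and 11 fell (median 0.32). The homeodomain gene pros had 28.1 and 27.4 FPKM in elav-Gal4 UAS-APP, against 4.75 and 3.38 FPKM in the UAS-APP control, a difference of 2.34 ± 0.14 (adjusted p = 3.93e-05), whereas Lim3 fell, with 3.85 and 3.90 FPKM in elav-Gal4 UAS-APP, against 7.10 and 8.50 FPKM in the UAS-APP control. Of 28 RNA-binding protein genes 25 rose and 0 fell, led by Rbp6, bol, qkr58E-1 and heph. This list's median of 1.01 became 0.13 and 11 rose and 4 fell when length-centred. Microtubule and motor genes rose in 21 of 28 cases and fell in 4 (median 0.50), but length-centred 10 rose and 6 fell (median 0.11). The list was led by futsch, a microtubule-associated protein of axons, with 42.6 and 42.1 FPKM in elav-Gal4 UAS-APP, against 9.90 and 6.46 FPKM in the UAS-APP control. Of 31 actin genes 5 rose and 14 fell, where 37.3% of all genes went each way, with a median of -0.23 that was -0.03 after quantile normalization and -0.32 length-centred. The Arp2/3 subunit gene Arpc4 had 24.6 and 27.5 FPKM in elav-Gal4 UAS-APP, against 57.9 and 58.1 FPKM in the UAS-APP control. Both control libraries were above both elav-Gal4 UAS-APP libraries, at -1.31 ± 0.08 (adjusted p = 4.69e-05). Polycomb and Trithorax genes, which keep chromatin states, rose in 18 of 27 cases and fell in 1 (median 0.42), but length-centred 5 rose and 4 fell (median 0.10).

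**Figure D4:**
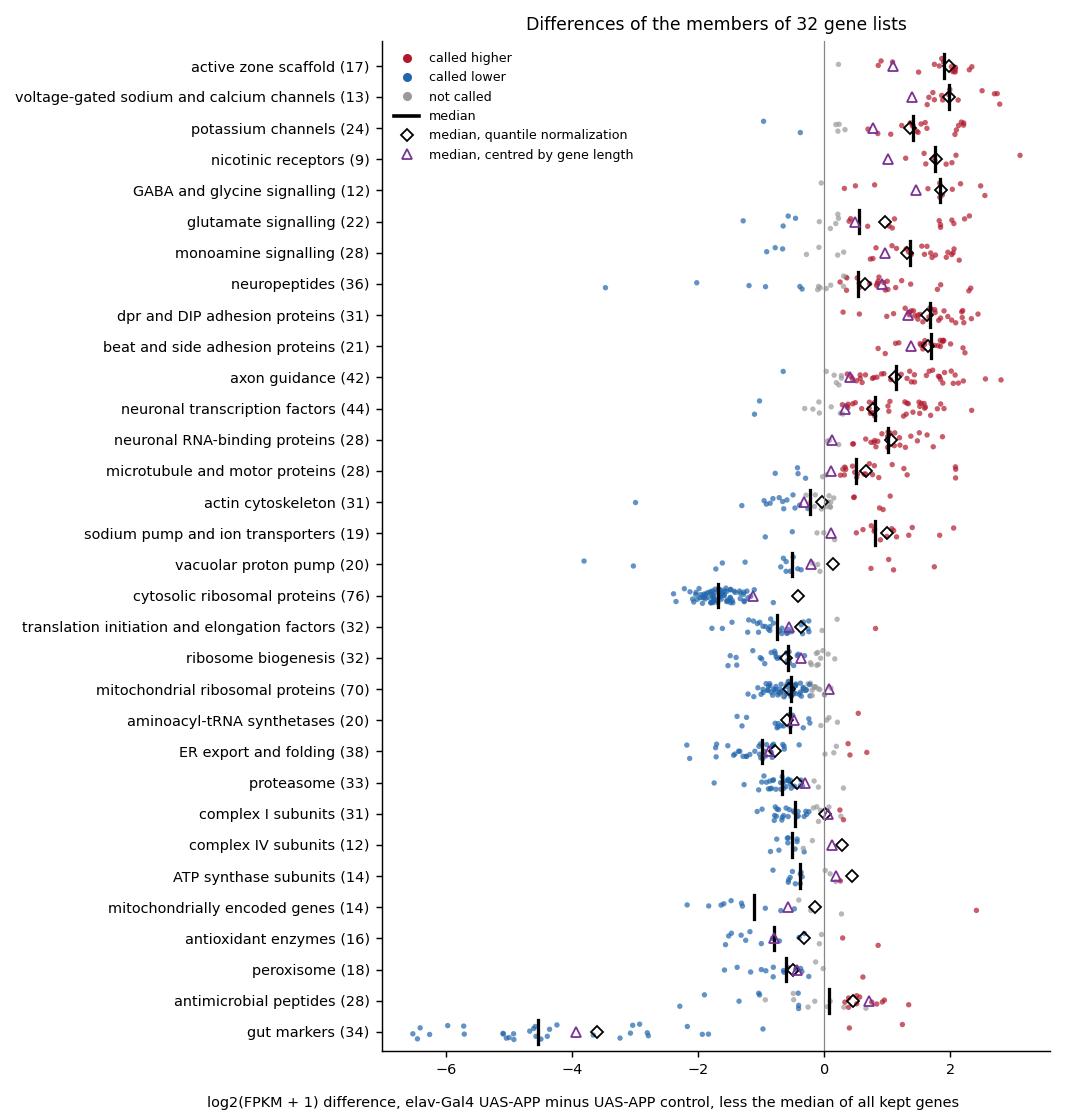
Median-relative log2(FPKM + 1) difference, elav-Gal4 UAS-APP minus UAS-APP control, of each kept member of 32 gene lists, with the number kept in parentheses; points are genes, bars are medians, diamonds are medians after quantile normalization and triangles medians after centring by gene length. Channel, receptor and adhesion lists lie right of 0 and cytosolic ribosomal protein, translation factor and gut lists left of it under all 3, whereas complex I, complex IV and ATP synthase turn to the right of 0 under both alternatives, the vacuolar proton pump under quantile normalization and mitochondrial ribosomal proteins under length centring.

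Genes of amyloid and tau biology were examined one by one, since APP is the transgene. Of 28 genes 21 rose and 4 fell (median 0.76, 0.30 length-centred). Adaptors of the APP family, the X11 proteins and Aplip1, rose, with X11Lbeta at 19.9 and 19.7 FPKM in elav-Gal4 UAS-APP, against 4.19 and 3.35 FPKM in the UAS-APP control. The alpha-secretase type proteases kuz and Tace rose by 1.09 and 1.12. The beta-secretase gene Bace had 24.2 and 25.1 FPKM in elav-Gal4 UAS-APP, against 768 and 618 FPKM in the UAS-APP control, a difference of -4.93 ± 0.11 (adjusted p = 1.96e-06), and its driver control level averaged 2773 FPKM. Bace is also one of the gut markers above, of which 32 of 34 kept genes fell. Whether its fall is tied to theirs was not tested. Of the gamma-secretase genes aph-1 and Nct fell, by 0.72 and 0.32, while Psn, the catalytic subunit presenilin, with 18.5 and 21 FPKM in elav-Gal4 UAS-APP, against 14.6 and 15.1 FPKM in the UAS-APP control, and pen-2 did not pass the test at adjusted p of 0.0879 and 0.709. Neprilysins degrade amyloid-beta peptides. Nep1, Nep2, Nep3 and Nep4 rose by 0.82, 0.62, 1.38 and 1.47, Nep5 fell by 1.88, and the insulin-degrading enzyme gene Ide rose by 0.61. The microtubule gene tau had 44.4 and 42.3 FPKM in elav-Gal4 UAS-APP, against 22.1 and 19 FPKM in the UAS-APP control and rose by 0.86 ± 0.10 (adjusted p = 0.000361). Of its kinases, sgg and par-1 and the Cdk5 activator Cdk5alpha rose by 1.13, 0.65 and 1.04 (par-1 was -0.32 length-centred), whereas Cdk5 did not pass, with 14.5 and 16 FPKM in elav-Gal4 UAS-APP, against 16.8 and 14.5 FPKM in the UAS-APP control. The remaining genes that rose were X11L, Appl, Aplip1, Dab, LpR1, LpR2, Apoltp, arr and cher, by 0.44 to 2.01, of which Apoltp, arr and cher turned to -0.53, -0.19 and -0.39 length-centred.

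Clock and peptide genes split. The clock list had 9 of 18 genes higher and 3 lower (median 0.30), and length-centred 9 rose and 5 fell (median 0.22). The partners per and tim, whose proteins repress their own transcription together, moved apart. The period gene per had 35.2 and 35.7 FPKM in elav-Gal4 UAS-APP, against 14.2 and 13.4 FPKM in the UAS-APP control, and the timeless gene tim had 63.6 and 62.6 FPKM in elav-Gal4 UAS-APP, against 127 and 124 FPKM in the UAS-APP control. These differences were 1.12 ± 0.08 (adjusted p = 6.4e-05) and -1.16 ± 0.07 (adjusted p = 3.86e-05). Clk rose by 0.49 and vri fell by 0.43, while cyc, cwo, Pdp1, cry, jet and Pdf, the clock neurons' peptide, did not pass, with adjusted p of 0.0867 to 0.608. The other genes of the list that rose were dco, Fbxl4, Pdfr, sgg, nmo, Slob and na, by 0.71 to 2.50, and to, a feeding-regulated gene of the head fat body, fell by 2.26. Times of collection are not given in the labels. Of 36 neuropeptide genes 22 rose and 6 fell (median 0.54), and length-centred 29 rose and 4 fell (median 0.92). Nplp1, spab, Dh44 and Mip rose by 1.79 to 2.32. The adipokinetic hormone gene Akh, made by endocrine cells of the corpora cardiaca outside the brain, had 46.5 and 46.2 FPKM in elav-Gal4 UAS-APP, against 409 and 524 FPKM in the UAS-APP control. CCHa2, a peptide of fat body and gut, had 65.1 and 66.2 FPKM in elav-Gal4 UAS-APP, against 220.3 and 258 FPKM in the UAS-APP control. Both fell, by 3.47 ± 0.12 and 2.03 ± 0.09 on the log2 scale. Among transcripts known to follow neuronal activity 6 of 13 rose and 2 fell, and their median of 0.29 became -0.12 when length-centred. The retrotransposon-like gene Arc1 had 18.9 and 18.6 FPKM in elav-Gal4 UAS-APP, against 166 and 129.7 FPKM in the UAS-APP control, a difference of -3.08 ± 0.12 (adjusted p = 1.19e-05), and CG17778 had 34.5 and 35.8 FPKM in elav-Gal4 UAS-APP, against 16 and 11.8 FPKM in the UAS-APP control, a difference of 1.11 ± 0.14 (adjusted p = 0.000603).

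Olfactory receptor genes were mostly higher, and odorant-binding protein genes went both ways. Orco, the co-receptor of most olfactory receptors, had 50.6 and 50.9 FPKM in elav-Gal4 UAS-APP, against 12.7 and 10 FPKM in the UAS-APP control, a difference of 1.90 ± 0.12 (adjusted p = 4.3e-05). Of 54 listed olfactory receptor genes 17 were kept, and 13 of these rose and 1 fell (median 0.65, 1.11 length-centred). All 54 summed to 117.5 and 119.2 FPKM in elav-Gal4 UAS-APP, against 40.9 and 33.2 FPKM in the UAS-APP control. The filter in part set the direction of any kept receptor under 1 FPKM in both control libraries, and how many were so is not given. Among 30 kept odorant-binding protein genes, which carry odours in the fluid of sensory hairs, 14 rose and 11 fell, where 37.3% of all genes went each way. Their median of 0.15 was -0.14 with a minimum of 5 FPKM and -0.05 without replicate 1 of the UAS-APP control, and length-centred 18 rose and 9 fell (median 0.87). Obp83a, an antennal member, had 568 and 574 FPKM in elav-Gal4 UAS-APP, against 112 and 91.7 FPKM in the UAS-APP control, whereas Obp57a had 0.192 and 0 FPKM in elav-Gal4 UAS-APP, against 28.3 and 36.9 FPKM in the UAS-APP control. In the photoreceptor list 16 of 23 genes rose and 4 fell (median 0.60), after quantile normalization 22 rose and 0 fell (median 1.34), and length-centred 12 rose and 1 fell (median 0.33). Of these genes eys, which keeps the light-sensing membranes apart, had 70 and 69.4 FPKM in elav-Gal4 UAS-APP, against 16.4 and 10.9 FPKM in the UAS-APP control, and the opsin gene Rh4 had 542 and 531 FPKM in elav-Gal4 UAS-APP, against 827 and 669 FPKM in the UAS-APP control. The difference was 2.11 ± 0.17 (adjusted p = 0.000111) for eys and -0.65 ± 0.12 (adjusted p = 0.00301) for Rh4, the second 0.56 after quantile normalization, and the 2 groups overlapped in neither. Cuticle genes went both ways, with 22 of 40 higher and 12 lower, and length-centred 27 rose and 7 fell (median 0.84). Muscle genes rose in 16 and fell in 6 of 28 cases, with a median of 0.36 that was -0.06 length-centred. The myosin gene Mhc had 240.03 and 239 FPKM in elav-Gal4 UAS-APP, against 115 and 108 FPKM in the UAS-APP control, and the troponin C gene TpnC73F had 10.8 and 11.2 FPKM in elav-Gal4 UAS-APP, against 43 and 54.5 FPKM in the UAS-APP control, so muscle genes moved in both directions, with Mhc at 0.92 (-0.04 length-centred) and TpnC73F at -2.22.

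Genes of the ribosome were lower, to an extent that depended on the scaling. All 76 kept cytosolic ribosomal protein genes fell, where 37.3% of all genes did, and 75 of them by the 2-fold rule. Their median was -1.69, -1.13 length-centred and -0.43 after quantile normalization. After quantile normalization 61 fell and 4 rose. Cytosolic ribosomal protein genes took up 3.06% and 3.05% of fragments in elav-Gal4 UAS-APP, against 8.06% and 9.04% in the UAS-APP control and 7.63% and 7.76% in the driver control. The small-subunit gene RpS20 had 323 and 313 FPKM in elav-Gal4 UAS-APP, against 1359.7 and 1519.6 FPKM in the UAS-APP control, a difference of -2.35 ± 0.09 (adjusted p = 1.19e-05). RpL39 had 70 and 70.1 FPKM in elav-Gal4 UAS-APP, against 386 and 279 FPKM in the UAS-APP control, and sta, which encodes the ribosomal protein SA, had 399 and 413 FPKM in elav-Gal4 UAS-APP, against 1548 and 1808 FPKM in the UAS-APP control. No library of elav-Gal4 UAS-APP reached the control range in these 3 genes. RpL22 was the exception in spread, since its 2 elav-Gal4 UAS-APP libraries stood at 347 and 134 FPKM, against 870 and 805 FPKM in the UAS-APP control.

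Genes that serve translation fell with it. Of 32 initiation and elongation factor genes 29 fell and 1 rose (median -0.76, -0.56 length-centred). The elongation factor gene eEF1alpha1 had 956 and 969 FPKM in elav-Gal4 UAS-APP, against 2558 and 2662 FPKM in the UAS-APP control, whereas eEF1alpha2, its counterpart in differentiated tissue, had 378 and 381 FPKM in elav-Gal4 UAS-APP, against 209 and 173 FPKM in the UAS-APP control. The differences were -1.62 ± 0.10 (adjusted p = 3.68e-05) for eEF1alpha1, which became 0.23 after quantile normalization, and 0.81 ± 0.11 (adjusted p = 0.00076) for eEF1alpha2. In ribosome biogenesis 22 of 32 genes fell and 0 rose (median -0.57, -0.36 length-centred), led by NHP2, Rrp46, Rrp4 and Non1 at -1.53, -1.49, -1.40 and -1.39. Among aminoacyl-tRNA synthetases, which load amino acids onto tRNAs, 15 of 20 fell and 1 rose (median -0.54, -0.49 length-centred). SerRS had 16.9 and 17 FPKM in elav-Gal4 UAS-APP, against 37.3 and 39.2 FPKM in the UAS-APP control, and LysRS, the one that rose, had 39.8 and 38.3 FPKM in elav-Gal4 UAS-APP, against 22.3 and 24.4 FPKM in the UAS-APP control. For mitochondrial ribosomal proteins 56 of 70 genes fell and 0 rose with a median of -0.53, but length-centred 10 fell and 18 rose with a median of 0.07.

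Most genes of the endoplasmic reticulum, proteasome, peroxisome and antioxidant lists were lower as well. In the endoplasmic reticulum (ER) list 32 of 38 genes fell and 3 rose (median -0.99, -0.88 length-centred). Gp93, an ER chaperone of the Hsp90 family, had 62.3 and 62.7 FPKM in elav-Gal4 UAS-APP, against 250.2 and 241 FPKM in the UAS-APP control. Hsc70-3, the ER chaperone BiP, had 116 and 115 FPKM in elav-Gal4 UAS-APP, against 355 and 321 FPKM in the UAS-APP control. The stress sensor gene Ire1, which acts upstream of such chaperones, had 25.7 and 26.1 FPKM in elav-Gal4 UAS-APP, against 14.6 and 13.1 FPKM in the UAS-APP control. So the chaperones fell, at -2.14 ± 0.07 (adjusted p = 6.21e-06) and -1.72 ± 0.08 (adjusted p = 2.09e-05), and the sensor rose, at 0.67 ± 0.09 (adjusted p = 0.000717), and a second sensor gene, PEK, rose by 0.41, with -0.23 length-centred. Of 33 proteasome genes 30 fell and 0 rose (median -0.67, -0.31 length-centred), and Prosalpha4, a core subunit, had 37.6 and 39.9 FPKM in elav-Gal4 UAS-APP, against 74.9 and 93.6 FPKM in the UAS-APP control. Of 18 peroxisome genes 15 fell and 1 rose (median -0.61, -0.44 length-centred), with catalase, Cat, at 191 and 190.1 FPKM in elav-Gal4 UAS-APP, against 335 and 339.9 FPKM in the UAS-APP control. Of 16 antioxidant genes 12 fell and 2 rose, with a median of -0.81 and -0.80 length-centred. The superoxide dismutase gene Sod1 had 470.1 and 483 FPKM in elav-Gal4 UAS-APP, against 967 and 1143 FPKM in the UAS-APP control, and the peroxiredoxin gene Prx2 had 185 and 184 FPKM in elav-Gal4 UAS-APP, against 454 and 483 FPKM in the UAS-APP control. Both were lower in both elav-Gal4 UAS-APP libraries, by 1.32 ± 0.11 and 1.52 ± 0.08 on the log2 scale, though Sod1 stood at 0.00 after quantile normalization.

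The direction of mitochondrial and chaperone lists depended on the scaling. Of 31 complex I genes 23 fell and 2 rose with a median of -0.47, which was 0.02 after quantile normalization and 0.06 length-centred. Complex IV had 10 of 12 genes lower and 0 higher at a median of -0.52, 0.29 after quantile normalization and 0.12 length-centred. ATP synthase had 10 of 14 genes lower and 1 higher at a median of -0.38, 0.44 after quantile normalization and 0.18 length-centred. Glycolytic genes had a median of -0.20, 0.65 after quantile normalization and -0.14 length-centred, and the lactate dehydrogenase gene Ldh fell most in that list, with 6.91 and 8.48 FPKM in elav-Gal4 UAS-APP, against 32.3 and 46.3 FPKM in the UAS-APP control. Of 14 genes on the mitochondrial genome 10 fell and 1 rose (median -1.12, -0.14 after quantile normalization, -0.57 length-centred), and mt:ND5, a complex I subunit, had 529 and 528 FPKM in elav-Gal4 UAS-APP, against 1673 and 1190.4 FPKM in the UAS-APP control. The gene that rose was mt:srRNA, by 2.41, and the most abundant, mt:lrRNA, did not pass. Mitochondrially encoded genes together took up 8.52% and 8.99% of fragments in elav-Gal4 UAS-APP, against 9.59% and 8.35% in the UAS-APP control, so the groups overlapped. Chaperone genes fell in 14 and rose in 11 of 29 cases, with a median of -0.21 that was 0.19 after quantile normalization and 0.23 length-centred. The constitutive chaperone gene Hsc70-4 had 648 and 652 FPKM in elav-Gal4 UAS-APP, against 1427 and 1229.8 FPKM in the UAS-APP control, a fall of 1.21 ± 0.10 that was 0.19 after quantile normalization, whereas the heat-inducible copies Hsp70Aa and Hsp70Bc, which are near-identical, rose, Hsp70Aa by 1.47.

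Several pairs of related genes moved apart, and these 6 pairs were chosen after their values were seen. In the vacuolar proton pump, which acidifies vesicles and lysosomes, 13 of 20 genes fell and 4 rose, with a median of -0.52 that was 0.14 after quantile normalization and -0.21 length-centred. The a-subunit genes Vha100-1, which acts in neurons, and Vha100-2 had opposite signs. Vha100-1 had 116 and 116 FPKM in elav-Gal4 UAS-APP, against 48.1 and 46.4 FPKM in the UAS-APP control. Vha100-2 had 45.7 and 45.9 FPKM in elav-Gal4 UAS-APP, against 138 and 132 FPKM in the UAS-APP control. Their differences were 1.10 ± 0.07 (adjusted p = 4.7e-05) and -1.72 ± 0.07 (adjusted p = 1.26e-05). The A-subunit gene Vha68-1 had 204 and 199.6 FPKM in elav-Gal4 UAS-APP, against 53.9 and 50.8 FPKM in the UAS-APP control, and Vha68-2 had 113 and 109 FPKM in elav-Gal4 UAS-APP, against 313 and 294 FPKM in the UAS-APP control. The vesicle protein gene nSyb, the neuronal synaptobrevin, had 395 and 393 FPKM in elav-Gal4 UAS-APP, against 114 and 88.3 FPKM in the UAS-APP control, and Syb, its counterpart outside synapses, had 59.4 and 61.8 FPKM in elav-Gal4 UAS-APP, against 118 and 134 FPKM in the UAS-APP control. Of the sodium pump beta subunits nrv2, found in nervous tissue, had 171 and 173 FPKM in elav-Gal4 UAS-APP, against 62.9 and 55.9 FPKM in the UAS-APP control, and nrv1 had 159 and 155 FPKM in elav-Gal4 UAS-APP, against 274 and 257 FPKM in the UAS-APP control. Of gap junction genes shakB, which forms electrical synapses, had 8.68 and 8.50 FPKM in elav-Gal4 UAS-APP, against 2.59 and 1.99 FPKM in the UAS-APP control, and Inx7 had 3.60 and 3.06 FPKM in elav-Gal4 UAS-APP, against 33.1 and 35.9 FPKM in the UAS-APP control. For all 6 pairs, eEF1alpha1 and eEF1alpha2 among them, each gene's groups did not overlap and each difference passed the test, but eEF1alpha1 changed sign to 0.23 after quantile normalization.

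**Figure D5:**
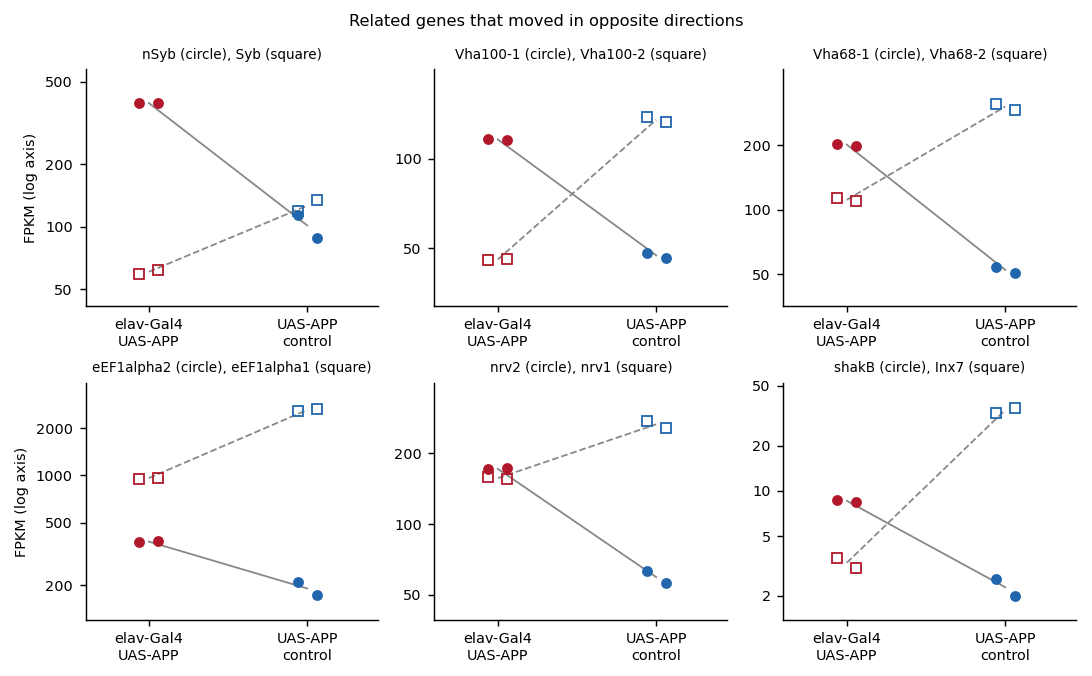
FPKM (log axis) of 6 pairs of related genes in the 2 elav-Gal4 UAS-APP libraries (left) and the 2 UAS-APP control libraries (right); circles are the gene that rose, squares the gene that fell, and lines join group means. Directions held under every scaling except for eEF1alpha1, which was 0.23 after quantile normalization. Vha68-1 stood at 204 and 199.6 FPKM in elav-Gal4 UAS-APP, against 53.9 and 50.8 FPKM in the UAS-APP control, and Vha68-2 at 113 and 109 FPKM in elav-Gal4 UAS-APP, against 313 and 294 FPKM in the UAS-APP control.

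The balance of antimicrobial peptide genes depended on the processing. Of 28 kept antimicrobial peptide genes 11 rose and 8 fell, with a median of 0.07 that was -0.13 with a minimum of 5 FPKM and -0.07 without replicate 2 of the UAS-APP control. After quantile normalization 13 rose and 6 fell (median 0.45), and length-centred 15 rose and 3 fell (median 0.71). The genes that rose were CecA1, AttA, AttB, AttC, AttD, DptA, DptB, Def, Drs, Drsl4 and BomBc1, by 0.33 to 1.34. Of these, CecA1 and AttD reached 1 FPKM only in elav-Gal4 UAS-APP, so the filter kept them through that group alone. Those that fell were BomS6, BomT2, BomT1, BomBc2, Drsl5, BomS5, BomBc3 and BomS3, by 0.41 to 2.29, of which BomS3 was 0.02 after quantile normalization and 0.19 length-centred, and BomS5 0.15 length-centred. All of these but Drsl5 belong to the Bomanin family, short peptides induced through Toll. The diptericin gene DptA, a target of the Imd pathway, had 62.7 and 70.8 FPKM in elav-Gal4 UAS-APP, against 33.5 and 27.8 FPKM in the UAS-APP control. BomS6 had 24 and 24.9 FPKM in elav-Gal4 UAS-APP, against 144 and 83.2 FPKM in the UAS-APP control. Neither gene's groups overlapped, at 0.92 ± 0.11 (adjusted p = 0.000576) and -2.29 ± 0.24 (adjusted p = 0.000267). Mtk, Dso1, Dso2, BaraA1, Dro, BomS1, BomS2, BomS4 and BomT3 did not pass. All 4 kept Turandot genes, secreted peptides of the stress response, fell (median -1.64, -0.99 length-centred), and TotA had 89 and 84.4 FPKM in elav-Gal4 UAS-APP, against 177 and 281 FPKM in the UAS-APP control. Hemocyte genes fell in 6 and rose in 3 of 12 cases (median -0.28), where 37.3% of all genes went each way, and length-centred 2 rose and 8 fell (median -0.67). PPO1, a prophenoloxidase of crystal cells, had 23.1 and 23.7 FPKM in elav-Gal4 UAS-APP, against 82.3 and 85 FPKM in the UAS-APP control. Copies of attacin and of Bomanin genes are alike, and how their fragments were split is uncertain.

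Sex genes were read because all flies are labelled male. None of the 7 Y-linked genes in the table was kept, and the most abundant, FDY, had 0 and 0 FPKM in elav-Gal4 UAS-APP, against 0.183 and 0.102 FPKM in the UAS-APP control, near the floor of 3 counts. The dosage compensation RNA lncRNA:roX1, made in males, had 219.9 and 216 FPKM in elav-Gal4 UAS-APP, against 262 and 224 FPKM in the UAS-APP control, and lncRNA:roX2 had 20.5 and 21.3 FPKM in elav-Gal4 UAS-APP, against 50.4 and 47.4 FPKM in the UAS-APP control. Both were lower in elav-Gal4 UAS-APP, at -0.33 ± 0.10 (adjusted p = 0.0205), which was 0.36 after quantile normalization, and -1.37 ± 0.08 (adjusted p = 3.3e-05). The yolk protein gene Yp3 had 8.68 and 8.73 FPKM in elav-Gal4 UAS-APP, against 24.4 and 31.4 FPKM in the UAS-APP control, and 236 FPKM on average in the driver control. The driver control had 69.7 and 70.8 FPKM for lncRNA:roX1 and 7.40 and 6.88 FPKM for lncRNA:roX2. Female markers, Yp3 among them, took up 0.0727% and 0.0762% of its fragments, 0.00601% and 0.00592% in elav-Gal4 UAS-APP and 0.00732% and 0.00741% in the UAS-APP control. Whether the driver control flies were all male was not tested. Of 18 kept sex determination and dosage compensation genes 7 rose and 5 fell, where 37.3% of all genes went each way, and length-centred 6 rose and 7 fell (median 0.04). Those that rose were fru, Sxl, mle, fl(2)d, msl-2, msl-1 and Clamp, by 0.21 to 1.28, and tra2 and ix fell by 0.25 and 0.28, with msl-1 at -0.31 and ix at 0.44 length-centred. The genes dsx, tra, her, vir, msl-3 and mof did not pass.

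By position, the fourth chromosome had more higher genes than lower ones. Of its 90 kept genes 61 were higher (67.8%, beside 37.3% of all kept genes) and 11 lower (12.2%), with a median of 0.62, and 0.36 length-centred. On the X 685 of 1573 genes were higher and 499 lower (median 0.13), and the medians of 2L, 2R, 3L and 3R lay between -0.06 and -0.01. The labels give no fourth-chromosome genotype, and the 2 groups differ in the first field of the genotype, so the driver and the genetic background cannot be told apart.

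Within the UAS-APP control the 2 libraries differed for several of these lists. For the 12 neuron markers the median difference of replicate 1 minus replicate 2 was 0.02 on the log2 scale in elav-Gal4 UAS-APP and 0.47 in the UAS-APP control, where all 12 were higher in replicate 1. The active zone and sodium and calcium channel lists stood at 0.35 and 0.38 between the control libraries. Ribosomal protein genes stood at -0.17 and gut markers at -0.06. In 8 of the 46 lists described the sign was opposite to that between the groups, as for muscle markers at -0.13, mitochondrially encoded genes at 0.17, chaperones at 0.16 and the vacuolar pump at 0.09. The median size of the difference between libraries was 0.06 in elav-Gal4 UAS-APP and 0.16 in the UAS-APP control, beside 0.60 between the groups. The 8 genes farthest apart between the control libraries were TpnC4, Dso2, CG45080, CG34212, snoRNA:Or-CD10, CG11854, Mtk and CG40439. The troponin C gene TpnC4 had 2.46 and 3.13 FPKM in elav-Gal4 UAS-APP, against 0.361 and 12 FPKM in the UAS-APP control, and did not pass the test, with the control libraries on both sides of the others.

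The driver control was set beside the genes that met the 2-fold rule, without a test, although its roX and yolk protein levels differed as given above. Among the 1349 higher genes it lay below the UAS-APP control in 1215, between the 2 groups in 125 and above elav-Gal4 UAS-APP in 9. Among the 1385 lower genes it lay above the UAS-APP control in 746, between the groups in 586 and below elav-Gal4 UAS-APP in 53. Its level was nearer to elav-Gal4 UAS-APP than to the UAS-APP control in 35 of the higher and 160 of the lower genes. Genes with no fragment in a group were few. In elav-Gal4 UAS-APP 17 kept genes had 0 fragments in both libraries, among them CG16723, which had 91 and 72 fragments in the UAS-APP control and was at least 27.2-fold lower in elav-Gal4 UAS-APP against a floor of 3 counts per library. In the UAS-APP control 15 kept genes had 0 fragments, among them lncRNA:CR46123.

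The authors' deposited table of KEGG pathways for the APP groups does not name its comparison. It lists 84 genes for the ribosome with a p-value of 7.2e-12, and 0 of these were higher and 84 lower here. The authors' deposited table also lists 12 genes for protein export, with 0 higher and 12 lower here, and 15 for neuroactive ligand-receptor interaction, of which 14 were kept, with 10 higher and 4 lower. In the authors' deposited table of GO terms, cilium assembly has 16 genes, of which 12 were kept, with 11 higher and 1 lower here, and synapse organization has 19, with 16 higher and 3 lower. These terms were chosen by the authors on these samples, so their counts are no independent evidence of direction.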

How the data were processed

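Poly(A) RNA was sequenced as paired ends. The authors deposited FPKM per gene, and per the submitters' processing notes the tools include HISAT2 2.1.0, Bowtie2 2.2.3 and TopHat2 on BDGP6, with no roles given. Authors' p-values and gene counts come from their deposited KEGG and GO tables. Genes with at least 1 FPKM in at least 2 of 4 libraries were kept, and log2(FPKM + 1) was tested with limma 3.58.1 (R 4.3.3, mean trend, Benjamini-Hochberg adjustment) after the median difference was taken away. The pseudocount of 1 understates changes of low genes. FPKM multiplied by exon length gave whole fragments, from which depth was taken. Floors cover counting error only, and the SE cover how much these 4 libraries vary. No strand marking is stated, so overlapping and antisense genes cannot be told apart. Replicate numbers do not pair the libraries (r = 0.019 between the groups' replicate differences). Named genes were the targeted genes, the 12 largest changes each way among genes of at least 5 FPKM, up to 4 per list with up to 2 of the other direction, the 8 genes farthest apart between control libraries, and all kept members of the antimicrobial peptide, sex determination, clock and amyloid lists. Further genes, and the pairs of related genes, were named after their values were seen. The gene lists and the comparison were chosen with earlier results of these data known. The fit was tested on simulated data with equal spread in both groups and few changed genes. That test does not cover the unequal spread, the many changed genes or the length trend seen here. Alternatives were another pseudocount, other filters and scalings, a joint fit, a replicate block, voom and leaving out each library.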

Additional observations from a re-analysis of the deposited data

How the results depend on the processing

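The counts of 3621 higher and 3618 lower genes stayed within 1.5 times under every alternative run. They were 4160 and 3229 with no filter (14339 genes), 3803 and 3460 after quantile normalization, and 3293 and 3252 length-centred, an alternative chosen after seeing the data. Leaving out 1 library gave 2897 to 3914 higher and 2846 to 3869 lower genes, where a lone library is assumed to vary like the other group. With the replicate number as a block, 3656 genes were higher and 3657 lower, and since the numbers do not pair the libraries this is given for completeness. By the 2-fold rule, 1349 higher and 1385 lower genes became 1427 and 1196 after quantile normalization, and 1136 and 973 length-centred. They were 1774 and 1563 with a pseudocount of 0.1, and stayed 1349 and 1385 with the driver control in the fit. Which direction held more genes by that rule thus depended on the processing. Values that changed sign were these, on the log2 scale and without a tested cause. Length-centred, Apoltp -0.53, BomS3 0.19, BomS5 0.15, CG40439 0.15, Cdk5 0.0751, Dro 0.56, Dso1 0.11, Mhc -0.0444, Mtk 0.31, PEK -0.23, TpnC4 0.27, arr -0.19, cher -0.39, cyc 0.13, dsx -0.85, ix 0.44, jet 0.20, msl-1 -0.31, par-1 -0.32, pen-2 0.44, tra 0.59, vir -0.59, the median of muscle markers -0.0574, the median of activity-induced transcripts -0.12, the median of mitochondrial ribosomal proteins 0.0683, the median of complex I subunits 0.0622, the median of complex IV subunits 0.12, the median of ATP synthase subunits 0.18 and the median of heat shock and chaperones 0.23 turned. After quantile normalization, BomS3 0.0223, Hsc70-4 0.19, Pdp1 0.11, Rh4 0.56, Sod1 0.00, eEF1alpha1 0.23, lncRNA:roX1 0.36, the median of complex I subunits 0.017, the median of complex IV subunits 0.29, the median of ATP synthase subunits 0.44, the median of glycolytic enzymes 0.65, the median of vacuolar proton pump 0.14 and the median of heat shock and chaperones 0.19 turned. With no median taken away, Dro 0.0284, Pdp1 0.14, cwo 0.009, cyc 0.0215, jet 0.0691, pen-2 0.14 and tra 0.17 turned. With no filter, Pdp1 0.0509, pen-2 0.0531, tra 0.0864 and the median of heat shock and chaperones 0.12 turned. With a pseudocount of 0.1, TpnC4 0.0773 turned. With voom on recovered fragments, TpnC4 0.28 turned. With a minimum of 5 FPKM, tra 0.0143, the median of odorant-binding proteins -0.14 and the median of antimicrobial peptides -0.13 turned. Leaving out 1 library, the following ranged across 0, BomS1 -0.0174 to 0.11, BomT3 -0.24 to 0.43, Dro -0.40 to 0.0953, Mtk -0.80 to 0.28, Pdf -0.051 to 0.25, TpnC4 -1.96 to 1.30, jet -0.22 to 0.0006, pen-2 -0.11 to 0.0158, tra -0.0805 to 0.0564, the median of odorant-binding proteins -0.0539 to 0.23, the median of heat shock and chaperones -0.24 to 0.0082 and the median of antimicrobial peptides -0.0716 to 0.17. Depth limits genes near the floor of 3 counts, and 2 libraries a group limit the estimate of spread.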
